A study of Mus musculus with 4 samples.

Results

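A set of 10 genes of the cartilage programme was examined for binding of phosphorylated Smads in the mouse molar tooth germ. They are 3 Sox transcription factor genes (Sox5, Sox6 and Sox9) and 7 genes of the cartilage matrix (Col2a1, Acan, Matn1, Matn3, Col9a1, Col11a1 and Hapln1), named as 10 members out of 21523 protein-coding genes placed on chromosomes 1 to 19 and X. The genes were chosen by name for their known role in cartilage, at a time when the peak counts at their loci in both lists were already known. Their counts are therefore descriptions and carry no test. The data are CUT&RUN peaks, places where an antibody held a nuclease to chromatin and released DNA for sequencing. The source was E13.5 molar tooth germs of CD1 mice, wild-type in genotype, from which 4 libraries were made. An antibody against phosphorylated Smad1/5 (pSmad1/5) was used for 2 libraries and an antibody against phosphorylated Smad3 (pSmad3) for the other 2, with no other treatment or genotype. The labels do not say how many embryos went into a library.

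Bone morphogenetic protein (BMP) receptors phosphorylate Smad1 and Smad5, and the receptors of TGF-β and activin phosphorylate Smad3. Both branches act in cartilage formation. Sox9 commits mesenchymal cells to the cartilage fate and, together with Sox5 and Sox6, switches on the genes of the cartilage matrix. In the lower jaw the molar germ develops close to Meckel's cartilage, and the labels do not say whether jaw cartilage was carried along in the dissection. Peak lists hold no expression values, so the tissue could not be checked against its markers.

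The authors deposited 1 list of peaks per antibody, common to its 2 libraries, with no value for a single library. The pSmad1/5 list held 10741 peaks and the pSmad3 list 7905 peaks, with median widths of 2385 and 4693 bp. Each line gives the total and the maximum signal of a call in the authors' scaling, with list medians of the maximum of 16 for pSmad1/5 and 13 for pSmad3. A signal percentile below is the share of the same list with a lower total signal. The position of the maximum lay wholly inside the deposited line for 27.1% of pSmad1/5 peaks and 70% of pSmad3 peaks, so a line is often a piece of a longer call. With 1 list per antibody there is no replicate check and no error on any value, and read depth is unknown. A gene without a peak is a gene without a deposited call, which says nothing of weaker signal.

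The locus of a gene was taken as its body with 10 kb added at each end, and any peak touching it was counted. By this count 5 of the 10 members had a pSmad1/5 peak (Sox5, Sox6, Col2a1, Acan and Matn1) and 3 had a pSmad3 peak (Sox5, Sox6 and Matn1). Among all protein-coding genes the shares were 27.3% for pSmad1/5 and 24.4% for pSmad3. Sox5, Sox6 and Matn1 thus had peaks of both antibodies, which 14.1% of all protein-coding genes had. Col2a1 and Acan had pSmad1/5 peaks without a pSmad3 peak, and 0 members had the reverse. Of the 21523 background genes, 5874 were counted for pSmad1/5, 5248 for pSmad3 and 3032 for both. Loci with 1 antibody alone thus occurred in both directions. Among 10 genes, the counts of 2 and 0 are too small to read as a preference for pSmad1/5. The other 5 members (Sox9, Matn3, Col9a1, Col11a1 and Hapln1) had neither, like 62.4% of all protein-coding genes. With 10 genes each gene weighs much in a share. The pSmad3 count lay near the background, and the higher pSmad1/5 count rests on few loci. Among peaks above the list median of total signal, 2 members (Col2a1 and Matn1) had a pSmad1/5 peak, near the 14.4% of all protein-coding genes that had one.

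Gene length touches these counts. Long genes offer more room for a peak, and Sox5 and Sox6 are far longer than most genes. Of the 3 members with a locus over 200 kb (Sox5, Sox6 and Col11a1), 2 had a pSmad1/5 peak and 2 a pSmad3 peak, where all protein-coding genes of that class had one in 46.1% and 38.4%, and both in 30.4%. Sox5 and Sox6 were the 2 with both. Of the 4 members under 50 kb (Sox9, Col2a1, Matn1 and Matn3), 2 had a pSmad1/5 peak and 1 a pSmad3 peak, against 23.7% and 21.2% of genes in that class. Matn1 was the 1 with both, against 11.1% of genes. Of the 3 members between 50 and 100 kb (Acan, Col9a1 and Hapln1), 1 had a pSmad1/5 peak and 0 a pSmad3 peak, against 29.8% and 27.8%, with 16.4% for both. Taken over length, the member loci spanned 2.19 Mb and held 7 pSmad1/5 and 3 pSmad3 peaks. That is 3.19 pSmad1/5 and 1.37 pSmad3 peaks per Mb, both below the 5.7 pSmad1/5 and 4.34 pSmad3 peaks per Mb over the loci of all protein-coding genes. Most of that length was Sox5 and Sox6, whose loci spanned 1.56 Mb with 2.56 pSmad1/5 and 1.28 pSmad3 peaks per Mb. The loci of the other 8 members spanned 0.628 Mb with 4.77 pSmad1/5 and 1.59 pSmad3 peaks per Mb, which rest on 3 pSmad1/5 peaks and 1 pSmad3 peak. The pSmad1/5 density was thus lower at these 2 long loci than at the other 8, which were also below all protein-coding genes. The split was made after the values were seen, and no density was computed for long genes as a class.

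**Figure D1:**
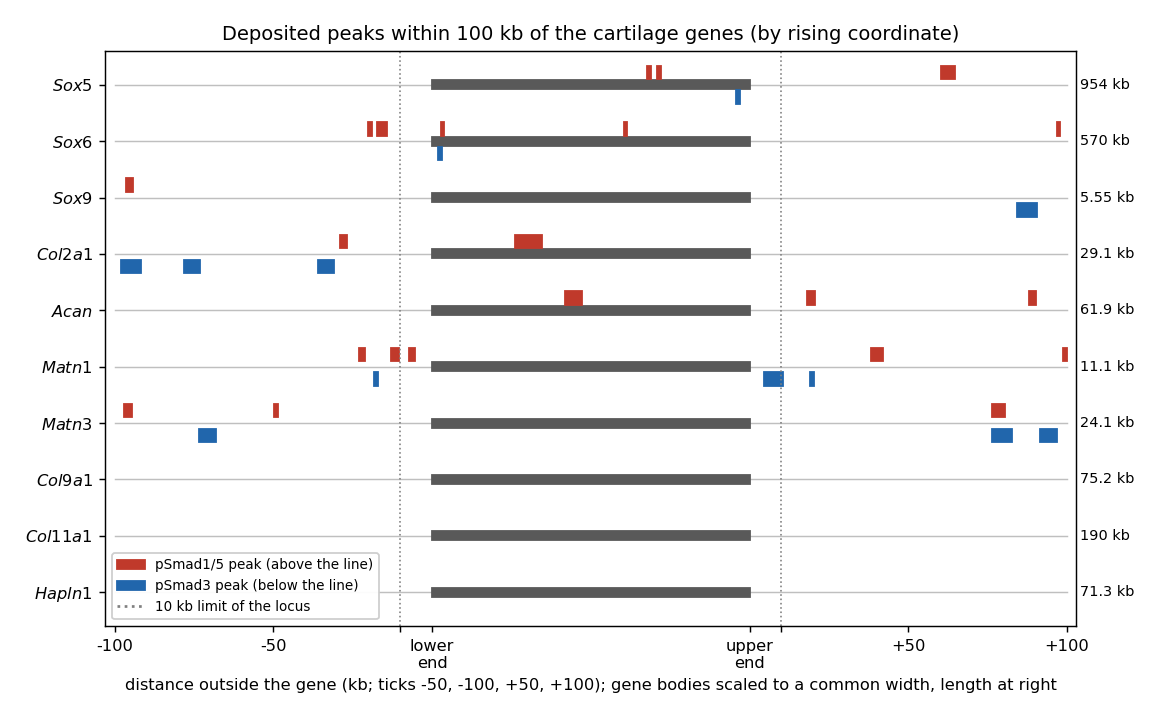
Deposited peaks within 100 kb of each cartilage gene, drawn by rising coordinate, with pSmad1/5 peaks above each line and pSmad3 peaks below it. Gene bodies are scaled to a common width with their length at the right, flanks are in kb, very narrow peaks are drawn at a minimum width, and dotted lines mark the 10 kb limit of the locus. Col9a1, Col11a1 and Hapln1 have no peak in the window.

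No peak of either list lay over a start of transcription listed for a member. The RefSeq starts at hand (GRCm38.p6, which mm10 follows) gave 14 start windows for 8 of the members. Each window runs from 250 bases before to 50 bases after a start. Sox9 and Col2a1 have no entry among these starts, so no start window of theirs was checked. For Sox5 the 1 listed start lies inside the gene, far from its 5′ end at 144782287, where no window was checked. In 0 of these 8 genes did a pSmad1/5 or a pSmad3 peak touch a window, where 3.64% and 4.29% of protein-coding genes with a listed start had such a peak. The member starts nearest to a peak were those of Matn1, with a pSmad1/5 peak 5384 bp away, and an inner start of Sox6, with a pSmad1/5 peak 5571 bp away. The windows of these 2 starts are shown because they lie closest to a deposited peak line among the members. The maximum of the Matn1 call lies farther off, in another piece 11311 bp from the gene. Capitals mark CAGAC or its reverse complement GTCTG, the box bound by Smad3 and Smad4, and would mark GGCGCC, a site bound by Smad1/5, which neither window holds.
Matn1, chr4:130944135-130944434, plus strand: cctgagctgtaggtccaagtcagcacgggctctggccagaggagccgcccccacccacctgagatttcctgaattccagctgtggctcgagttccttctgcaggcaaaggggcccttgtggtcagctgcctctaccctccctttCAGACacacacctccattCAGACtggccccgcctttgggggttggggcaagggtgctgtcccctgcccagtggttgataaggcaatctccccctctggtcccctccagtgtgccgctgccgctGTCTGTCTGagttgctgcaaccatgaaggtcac
Sox6, chr7:115824661-115824960, minus strand: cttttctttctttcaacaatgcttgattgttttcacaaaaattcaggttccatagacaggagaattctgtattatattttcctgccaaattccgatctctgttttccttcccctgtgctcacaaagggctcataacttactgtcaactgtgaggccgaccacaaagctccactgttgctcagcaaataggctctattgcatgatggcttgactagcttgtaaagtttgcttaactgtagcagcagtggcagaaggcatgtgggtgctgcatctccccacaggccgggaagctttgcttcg
The Matn1 window held 4 copies of CAGAC or GTCTG, the last 2 side by side and sharing a G, and the Sox6 window held 0. The 14 member windows include 6 of Sox6 and 2 of Col9a1, so the 8 genes do not weigh equally. Of the 14 member windows, 9 held CAGAC on either strand and 0 held GGCGCC, against 49.5% and 12% of the 32619 start windows on the same chromosomes. The core of the Sox binding site, ACAAT or ATTGT, was found in 5 of the 14 member windows and in 30.7% of all windows. These matches are letters in a window and not sites shown to be bound.

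Near the members, 3 long non-coding RNA genes had a start window that lay whole inside a pSmad3 peak. Their windows are the stretches under a peak for which sequence was at hand, and they are shown with the same capitals. The first lies past the end of Matn1, and of its overlapping listed windows the downstream one is shown. The second lies within Vdr, the vitamin D receptor gene near Col2a1, and the third before Matn3.
LOC108168713, chr4:130975027-130975326, plus strand: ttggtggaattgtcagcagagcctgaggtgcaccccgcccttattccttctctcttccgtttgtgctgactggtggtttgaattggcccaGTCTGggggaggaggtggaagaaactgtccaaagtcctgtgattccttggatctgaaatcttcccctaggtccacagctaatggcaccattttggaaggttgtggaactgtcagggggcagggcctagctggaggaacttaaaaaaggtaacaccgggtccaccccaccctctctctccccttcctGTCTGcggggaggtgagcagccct
Gm52171, chr15:97881448-97881747, plus strand: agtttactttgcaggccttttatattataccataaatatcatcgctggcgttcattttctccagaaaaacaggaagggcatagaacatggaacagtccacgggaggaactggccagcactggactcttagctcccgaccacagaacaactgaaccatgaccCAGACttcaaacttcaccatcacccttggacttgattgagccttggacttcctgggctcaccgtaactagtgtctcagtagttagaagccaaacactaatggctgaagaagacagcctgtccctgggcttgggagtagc
Gm33483, chr12:8879180-8879479, plus strand: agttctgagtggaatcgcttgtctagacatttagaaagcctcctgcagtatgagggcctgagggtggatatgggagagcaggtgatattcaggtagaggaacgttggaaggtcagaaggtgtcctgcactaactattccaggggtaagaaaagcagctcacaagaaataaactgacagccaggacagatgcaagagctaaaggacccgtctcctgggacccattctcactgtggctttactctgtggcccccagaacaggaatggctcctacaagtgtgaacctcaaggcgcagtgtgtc
CAGAC or GTCTG occurred 2 times in the window of LOC108168713, 1 time in that of Gm52171 and 0 times in that of Gm33483, and GGCGCC occurred in none of these 3. Over all start windows, CAGAC or GTCTG was found in 48.8% of the 1011 under a pSmad1/5 peak and 52.2% of the 1252 under a pSmad3 peak, close to the 49.5% of all windows. GGCGCC was found in 14.6% under pSmad1/5 peaks and 14% under pSmad3 peaks, against 12% of all windows. The Sox core, ACAAT or ATTGT, was found in 23.8% and 22.4%, below its 30.7% of all windows.

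Sox5 and Sox6 encode closely related Sox proteins that bind DNA together with Sox9 at cartilage enhancers. Sox5 spans chromosome 6 from 143828425 to 144782287 (954 kb, minus strand). It held 2 pSmad1/5 peaks and 1 pSmad3 peak, each from its own call and each inside the gene. The pSmad1/5 peaks ran from 144480092 to 144482131 (percentile 47.3, maximum 16) and from 144509192 to 144511124 (percentile 9.7, maximum 14). The pSmad3 peak ran from 144746281 to 144747515 (percentile 35.1, maximum 12), only 34.8 kb below the upper end of the gene, which on the minus strand is its 5′ end. The pSmad1/5 and pSmad3 peaks thus lay in separate parts of the gene, at least 235157 bp apart. A further pSmad1/5 peak lay 60.2 kb beyond the 5′ end, over the non-coding gene Gm32124 (percentile 18.2). All of these peaks had maxima at or below the median of their list.

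Sox6 spans chromosome 7 from 115470872 to 116040776 (570 kb, minus strand) and also held 2 pSmad1/5 peaks and 1 pSmad3 peak inside the gene. The first pSmad1/5 peak ran from 115488239 to 115490913 (percentile 20.2, maximum 17) and the second from 115817239 to 115819139 (percentile 2.4, maximum 20). The second was among the lowest of its list in total signal, yet its maximum was above the third quartile of 19, so a low total went with a high maximum. The pSmad3 peak ran from 115484357 to 115486267 (percentile 50.6, maximum 13). It ended 1972 bp before the first pSmad1/5 peak began, so by deposited lines the antibodies did not overlap there. The maxima of the calls came closer. The pSmad3 call had its maximum from 115487939 to 115489356, outside its own deposited line, and the pSmad1/5 call had its maximum from 115489455 to 115489461, 99 bp away. At this place, 17.4 kb inside the 3′ end of Sox6, the 2 lists therefore point to nearly the same position. A pSmad1/5 call in 2 pieces lay 14.3 and 19.5 kb beyond the 3′ end (percentile 23.6, maximum 16), just outside the locus.

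Sox9 (chromosome 11, 112782210 to 112787757, 5.55 kb), the leading regulator of cartilage fate, had no peak in its locus. The nearest pSmad1/5 peak lay 94.2 kb below the gene (112685859 to 112687973, percentile 23.9, maximum 14) and the nearest pSmad3 peak 84.1 kb above it (112871905 to 112878278, percentile 72.4, maximum 10). Sox9 is known for enhancers spread over a wide region with few genes, so its neighbouring intervals were counted as well. The 1.06 Mb below Sox9, down to the gene model Gm11677, held 1 pSmad1/5 and 0 pSmad3 peaks. The 0.457 Mb above it, up to Slc39a11, held 5 pSmad1/5 peaks from 4 calls and 5 pSmad3 peaks. The peaks around Sox9 thus lay mostly on the Slc39a11 side, where the pSmad1/5 peaks began 174 kb from Sox9 and reached percentile 81.6, and the pSmad3 peaks reached percentile 80.2. Both lists had peaks over that side, and 0 of the pSmad1/5 lines overlapped a pSmad3 line there, with no share over the whole lists to compare. Intervals beside other members varied widely. The 0.813 Mb above Matn1 held 19 pSmad1/5 and 15 pSmad3 peaks, and the 0.683 Mb above Col11a1 held 0 of either. The counts beside Sox9 are therefore not read as a trait of Sox9.

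**Figure D2:**
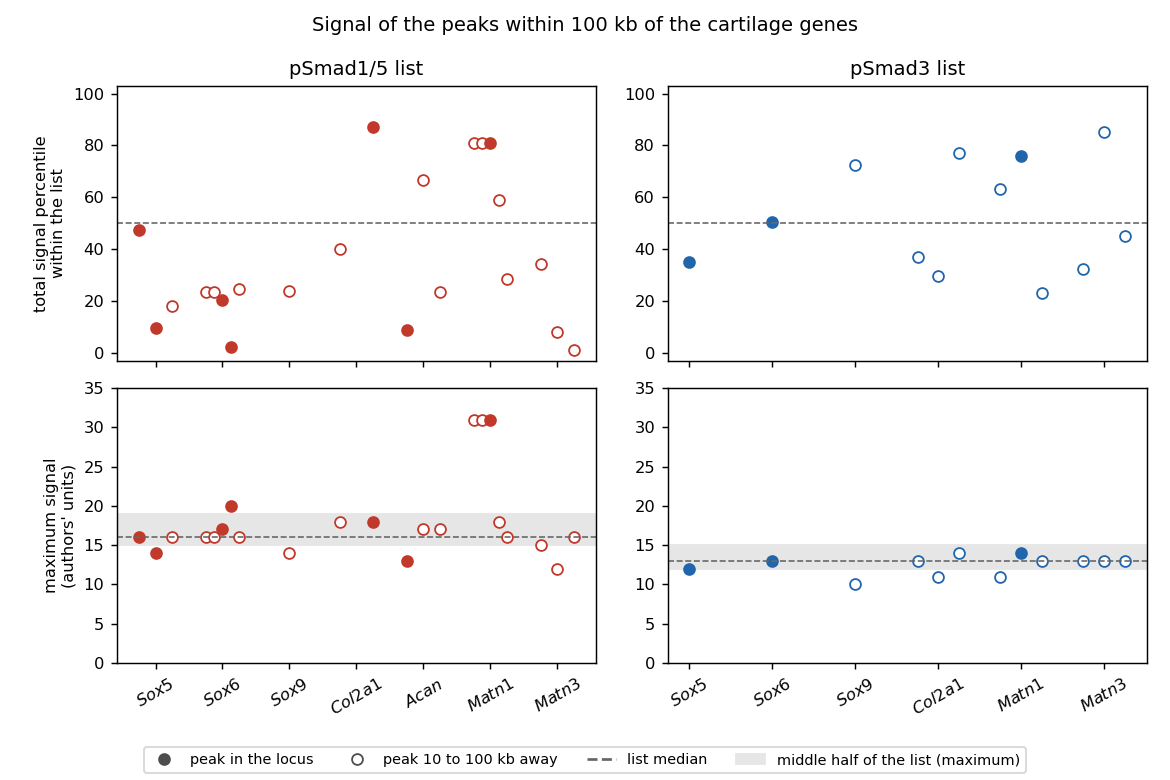
Total signal percentile within the list (top) and maximum signal in the authors' units (bottom) of each peak within 100 kb of a cartilage gene, pSmad1/5 left and pSmad3 right. Filled points lie in the locus, open points 10 to 100 kb away, dashed lines mark list medians and grey bands in the bottom panels run between the quartiles of the list. The Matn1 call with a maximum of 31 stands above the other points.

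Col2a1 encodes the chain of type II collagen, the main collagen of cartilage, and spans chromosome 15 from 97975602 to 98004724 (29.1 kb). It held the pSmad1/5 peak with the highest total signal of the members, from 97983240 to 97985720 inside the gene (percentile 87.3, total 146408). Its maximum of 18 was unremarkable against the list median of 16. The total is 8134 times the maximum, and if it is a sum over bases, as SEACR defines it, the call covered at least 8134 bp, much more than the 2481 bp of the deposited line. The maximum lay 777 bp outside the line and still inside Col2a1. On that reading the call at Col2a1 was broad rather than high. No pSmad3 peak lay in the locus, and the nearest was 30.9 kb below the gene (97939500 to 97944688, percentile 77.0, maximum 14). That pSmad3 peak ended 1956 bp before a pSmad1/5 peak 26.8 kb below the gene (97946644 to 97948789, percentile 39.9, maximum 18). Another 2 pSmad3 peaks within 100 kb lay inside Vdr, at percentiles 36.9 and 29.5.

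Acan encodes aggrecan, the large proteoglycan that holds water in cartilage, and spans chromosome 7 from 79053226 to 79115099 (61.9 kb, plus strand). Its 1 pSmad1/5 peak ran from 79079167 to 79082508, 25.9 kb past the start of transcription. It was weak in its list, with a percentile of 8.8 and a maximum of 13 against a first quartile of 15. No pSmad3 peak lay within 100 kb, and the nearest was 370 kb away. A stronger pSmad1/5 peak lay 18.2 kb beyond the end of Acan (79133267 to 79135586, percentile 66.5, maximum 17). It lay over an end of Mfge8, the gene of a secreted glycoprotein, and within the locus of Hapln3, a link protein gene between Acan and the peak (79117027 to 79133173). The maximum of the call, from 79130350 to 79130353, lay inside Hapln3.

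Matn1 and Matn3 encode matrilins, adaptor proteins that connect collagen fibrils with aggrecan. Matn1 (chromosome 4, 130944385 to 130955476, 11.1 kb, plus strand) was flanked by peaks of both antibodies, 1 on each side. The pSmad1/5 peak ran from 130937110 to 130939001, 5384 bp before the gene (percentile 81.0), and the pSmad3 peak from 130960115 to 130966106, 4639 bp after it (percentile 76.1, maximum 14). The pSmad1/5 line is 1 of 3 pieces of a call whose maximum of 31, nearly 2 times the list median, lay in another piece, 10.3 kb before Matn1 and inside Laptm5. Laptm5 encodes a lysosomal membrane protein of blood cells, and its end lay 962 bp from the peak in the Matn1 locus, nearer than Matn1 itself. A pSmad3 peak lay between pieces of this call (130926423 to 130927060, percentile 63.1, maximum 11). Within 100 kb, Matn1 had 5 pSmad1/5 and 3 pSmad3 peaks. Sox6 also had 5 pSmad1/5 peaks within 100 kb, and Col2a1 and Matn3 each had 3 pSmad3 peaks. With 1000 kb on either side, Matn1 had 37 and 27 peaks, more than any other member.

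Matn3 (chromosome 12, 8947929 to 8972028, 24.1 kb, plus strand) had no peak in its locus. Its nearest pSmad1/5 peak lay 48.8 kb before the gene (percentile 8.0, maximum 12) and its nearest pSmad3 peak 68.3 kb before it (percentile 32.2, maximum 13). The sole place within 100 kb of a member where peaks of the 2 lists overlapped was 76.5 kb past Matn3, in the interval beyond Ttc32, the nearest coding gene there. There the pSmad1/5 peak ran from 9048479 to 9052389 (percentile 1.2, maximum 16) and the pSmad3 peak from 9048477 to 9054821 (percentile 85.1, maximum 13). Their starts differed by a pair of bases, but the pSmad1/5 call was close to the lowest total of its list while the pSmad3 call was high in its own. Percentiles come from different lists and are not compared as amounts of binding. Within 100 kb of the members, 1 of 22 pSmad1/5 and 1 of 12 pSmad3 peaks overlapped the other list. The share of overlapping peaks over the whole lists is not given here, so whether this is few cannot be told.

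Col9a1 and Col11a1 encode chains of the minor collagens of the cartilage fibril, and Hapln1 encodes the link protein that fastens aggrecan to hyaluronan. None of these 3 genes had a peak of either antibody within 100 kb, as was the case for 31.1% of protein-coding genes. For Col9a1 (chromosome 1, 24177589 to 24252738) the nearest pSmad1/5 peak was 236 kb away and the nearest pSmad3 peak 359 kb. The pSmad3 distance ends at a call with a maximum of 353, far above the pSmad3 median of 13. For Col11a1 (chromosome 3, 114030479 to 114220756) the distances were 1367 kb for pSmad1/5 and 765 kb for pSmad3. For Hapln1 (chromosome 13, 89540529 to 89611832) they were 1271 kb and 508 kb. Col11a1 and Hapln1 thus lay in stretches of over a megabase without a pSmad1/5 call, and Vcan, the proteoglycan gene beside Hapln1, also had no peak.

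**Figure D3:**
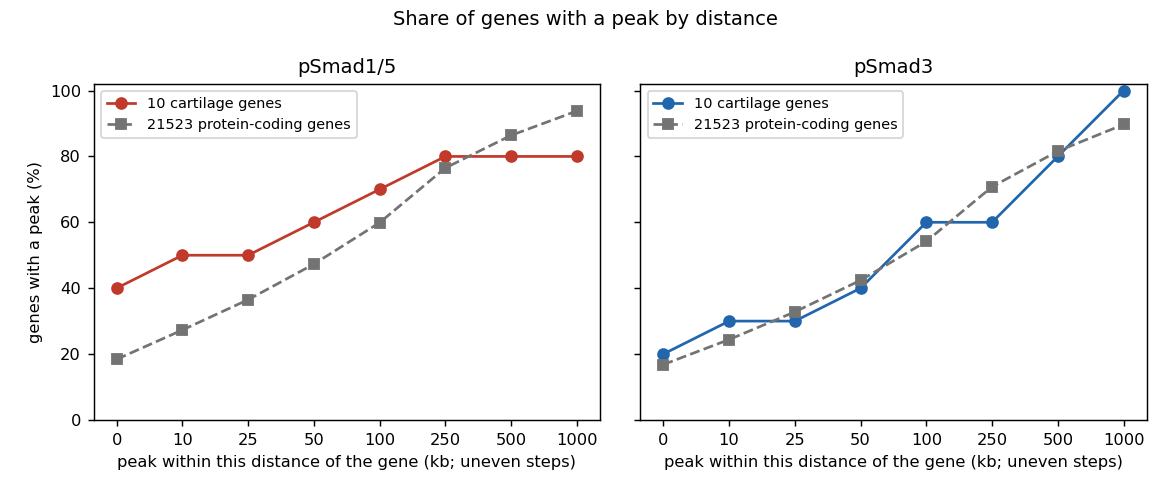
Share of genes with a peak within a given distance of the gene, for the 10 cartilage genes (filled circles) and 21523 protein-coding genes (grey squares), pSmad1/5 left and pSmad3 right, with uneven distance steps. For pSmad1/5 the cartilage genes lie above all genes up to 250 kb (80% and 76.5%) and below them at 1000 kb (80% and 93.8%), and for pSmad3 the lines cross several times.

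Widening the distance did not set the members apart. Within 100 kb, 7 members had a pSmad1/5 peak (59.9% of all protein-coding genes) and 6 a pSmad3 peak (54.2%). Within this distance there were 22 pSmad1/5 and 12 pSmad3 peaks, 15 and 9 of them outside the loci. Their median percentiles were 24.2 for pSmad1/5 and 47.9 for pSmad3, so the pSmad1/5 peaks near these genes were mostly in the lower part of their list. In the loci, 2 of 7 pSmad1/5 and 2 of 3 pSmad3 peaks were above the list median of total signal. The maximum of the call lay inside the deposited line for 4 of the 7 pSmad1/5 peaks (Sox5, both in Sox6, and Acan) and 1 of the 3 pSmad3 peaks (Matn1). At the limit of the locus, the outermost peaks inside it were the Matn1 peaks at 5384 and 4639 bp, and the first outside were a piece of the Matn1 call at 10325 bp and a Sox6 piece at 14264 bp.

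Other genes of the cartilage programme were counted for comparison, without a test of any difference. Among 30 other cartilage matrix genes, pSmad1/5 peaks were found at 12 (40%) and pSmad3 peaks at 10 (33.3%), with both at 8 and neither at 16. The shares of all protein-coding genes were 27.3% and 24.4%, with 14.1% for both and 62.4% for neither. The 5 genes with the highest percentiles were Col27a1, Chst11, Sulf2, Col11a2 and Col9a3. Col27a1, a fibrillar collagen, had 7 pSmad1/5 and 6 pSmad3 peaks (highest percentiles 88.5 and 79.3). Chst11, a chondroitin sulfotransferase, had 7 and 3 (87.1 and 36.2), and Sulf2, a heparan sulfatase, had 2 and 3 (87.6 and 40.3). Some of these peaks are pieces of the same call, as the pSmad1/5 peaks came from 6 calls at Col27a1, 5 at Chst11 and 1 at Sulf2. Col9a3 and Col11a2, partner chains of the members Col9a1 and Col11a1, had 2 and 1 peaks (44.3 and 89.1) and 1 and 2 peaks (83.5 and 83.5). Col9a2, another partner chain of Col9a1, had no peak, as the 2 members had none. Bgn and Chad, which encode small matrix proteins, had none.

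Among 25 other regulators of cartilage, 6 had pSmad1/5 peaks and 6 had pSmad3 peaks. These shares of 24% each lay near the 27.3% and 24.4% of all protein-coding genes. Runx1 had 4 and 2 peaks (80.1 and 53.9), Runx3 had 2 and 2 (40.1 and 46.8) and Nfatc1 had 1 and 1 (48.2 and 26.2), all of them transcription factor genes. The Runx1 locus is long, at 245 kb. The receptor genes Fgfr3 (65.9) and Pth1r (54.0), whose products restrain the growth or maturation of cartilage, each had 2 pSmad1/5 peaks and 0 pSmad3 peaks. The homeobox genes Barx1 and Barx2 had no peak. Among 16 other Sox genes, 5 had pSmad1/5 peaks (31.2%) and 6 had pSmad3 peaks (37.5%). Sox8, a close relative of Sox9, had 1 pSmad1/5 peak and 3 pSmad3 peaks from 2 calls (71.3 and 91.0). Sox10, the other close relative, had 1 and 1 (25.5 and 74.9). Sox13, the relative of Sox5 and Sox6, had 2 and 3 (81.1 and 76.8). Sox18, known from vessels, had 1 and 1 (73.8 and 51.4), Sox21 had 0 and 1 (37.8), and Sox1 and Sox11 had none. Sox9 was therefore without a locus peak while both of its relatives had peaks of both antibodies. Having none was the common state, found at 9 of the 16 other Sox genes and 62.4% of all protein-coding genes.

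By numbers of peaks in the locus, several genes of these lists equalled a member. Sox5 and Sox6 were matched in number by Col9a3, Gli1 and Cilp2 with 2 pSmad1/5 and 1 pSmad3 peaks. The loci of Col9a3, Gli1 and Cilp2 span only 44.1, 31.7 and 27 kb, against 974 and 590 kb for Sox5 and Sox6. The 2 pSmad1/5 peaks of Cilp2 also come from 1 call. Matn1 was matched by Sox10, Mepe and Snorc with 1 and 1. The match is in number only, as the Mepe maxima were 69 (pSmad1/5) and 31 (pSmad3), against 31 and 14 at Matn1. Col2a1 was matched by Cnmd and Lhx6, and Acan by Esrp1, Cnmd and Lhx6, with 1 pSmad1/5 and 0 pSmad3 peaks. These matches rest on 1 list per antibody.

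**Figure D4:**
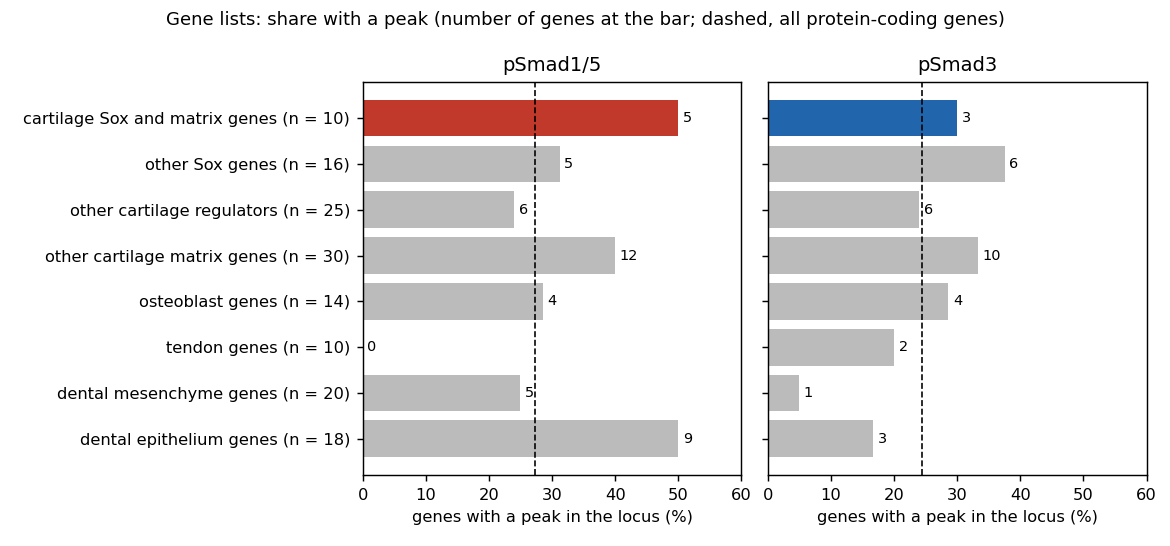
Share of genes with a peak in the locus for the cartilage genes (coloured bar) and 7 other gene lists (grey bars), pSmad1/5 left and pSmad3 right, with the number of genes at each bar and the share of all protein-coding genes as a dashed line. The cartilage genes are at 50% for pSmad1/5 and 30% for pSmad3. The lists differ in locus length, with medians from 24.6 kb (other Sox genes) to 86.6 kb (cartilage genes).

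Lists for the other tissues that a dissected germ may hold were counted in the same way, beside 27.3% (pSmad1/5) and 24.4% (pSmad3) of all protein-coding genes. Dental mesenchyme genes had a pSmad1/5 peak at 5 of 20 and a pSmad3 peak at 1 of 20. Gli1 (64.2 and 89.5), a mediator of hedgehog signalling, had both, while Sdc1 (67.6), Lhx6 (49.7), Msx1 (16.6) and Runx2 (5.7) had pSmad1/5 peaks without a pSmad3 peak, and Barx1 and Bmp4 had none. Dental epithelium genes had a pSmad1/5 peak at 9 of 18 and a pSmad3 peak at 3 of 18. Grhl3 (87.7 and 89.5) and Bmp7 (85.5 and 66.2) had both, Cldn4 (82.1), Krt14 (77.1) and Esrp1 (68.1) had pSmad1/5 peaks, and Cdh1 and Epcam had none. The epithelial list thus had the same share with a pSmad1/5 peak as the cartilage genes, with shorter loci (median 33.7 kb against 86.6 kb).

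Osteoblast genes had a pSmad1/5 peak at 4 of 14 and a pSmad3 peak at 4 of 14, led by Bglap2 (66.1 and 88.5), and with Mepe (61.4 and 70.7) and Bglap and Pth1r (pSmad1/5, 66.1 and 54.0). Bglap and Bglap2 are adjacent osteocalcin genes and share a pSmad1/5 call. Atf4 and Col1a2 had no peak. Tendon genes had a pSmad1/5 peak at 0 of 10 and a pSmad3 peak at 2 of 10, which were Scx (90.7), the tendon-forming transcription factor, and Egr1 (21.4), with none at Col12a1 and Col14a1. The part of any of these cell types in the peaks at the cartilage genes was not tested.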

How the data were processed

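CUT&RUN was performed on E13.5 molar germs with 2 libraries per antibody. Per the labels, nuclease digestion took 30 min and reads were 100 bp paired ends. Bowtie2, SAMtools, bedtools, SEACR, deepTools and mm10 are named in the submitters' processing notes, with no version, setting or control library. From each antibody the authors deposited a single joint list, in which each line has the total and maximum coverage signal of its call. These values were used within a list. The way the authors joined libraries may shift a line away from the maximum of its call.

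Peaks were joined to RefSeq genes of GRCm38.p6 by at least 1 bp, with Python 3.11.15, pandas 2.3.3 and numpy 2.4.6. All members and list genes matched the table. Genes that begin below 3 Mb were not used. Overlap counting was tested on simulated peaks. The members and lists were chosen with earlier results of these data known, and no p-value is given. All 10 members are named. From each other list the 5 genes with the highest percentile (where as many had a peak) and the first 2 without a peak by alphabet are named, and genes beside a peak, with Vcan and Col9a2, were named after values were seen. A few genes that this rule names are not reported here. Alternatives covered window, overlap, weak peaks, high maxima, the place of the maximum and pieces of calls.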

Additional observations from a re-analysis of the deposited data

How the results depend on the processing

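Of 42 alternative values, 32 stayed within 1.5 times the reported count. This compares counts alone, while the shares of all protein-coding genes moved with the setting. With 50 kb on each side the loci held 15 pSmad1/5 and 6 pSmad3 peaks. There 6 of the 10 members had a pSmad1/5 peak, 4 a pSmad3 peak and 4 both. The shares of all protein-coding genes rose to 47.3%, 42.4% and 31.9%, so the members lay closer to the background for pSmad1/5. With the peaks above the list median of total signal, 2 members had a pSmad1/5 peak (Col2a1 and Matn1), against 14.4% of all protein-coding genes, and 1 had both antibodies (Matn1), against 6.27%, with 2 pSmad1/5 peaks in all. With only the peaks that hold the maximum of their call, 3 members had a pSmad1/5 peak (Sox5, Sox6 and Acan), 1 a pSmad3 peak (Matn1) and 0 both, with 4 pSmad1/5 peaks and 1 pSmad3 peak. In that setting the shares of all protein-coding genes were 9.91% for pSmad1/5, 19.2% for pSmad3 and 4.86% for both, so fewer peaks entered the count by construction. Without the 10 kb flanks 4 members had a pSmad1/5 peak, against 18.4% of all protein-coding genes, and 2 a pSmad3 peak, near the 16.8% of all genes, since the Matn1 peaks lie outside the gene. Counting distinct calls changed neither number of peaks in the loci.

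No paired analysis was possible because each antibody has 1 deposited list common to its 2 libraries, so leaving out a replicate was not possible either. Read depth is unknown, and a missing call is not a measured absence of binding.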

Other observations

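Among the other cartilage matrix genes, Col27a1 had the most peaks, and it holds the microRNA gene Mir455, whose products are known from cartilage. The microRNA was looked up after the counts were seen. The mature forms are shown in their RefSeq sequence, with the seed (bases 2 to 8) in capitals.
mmu-miR-455-5p, chr4:63256867-63256888, plus strand: uAUGUGCCuuuggacuacaucg
mmu-miR-455-3p, chr4:63256904-63256924, plus strand: gCAGUCCAcgggcauauacac
The nearest pSmad1/5 peak (63251655 to 63254713, percentile 88.5, maximum 18) ended 2154 bp before the first of these, and the nearest pSmad3 peak (63247872 to 63250926, percentile 79.3, maximum 15) ended 5941 bp before it. No peak covered the microRNA itself.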
